A study of Sus scrofa with 13 samples.

Results

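Phase II conjugation enzymes attach a polar group to drugs, hormones, bile acids and reactive products of metabolism, so that the liver can pass them into bile or blood. UDP-glucuronosyltransferases (UGT) in the endoplasmic reticulum transfer glucuronic acid from UDP-glucuronic acid, glutathione S-transferases (GST) join electrophiles to glutathione, and cytosolic sulfotransferases (SULT) transfer sulfate from PAPS (3'-phosphoadenosine-5'-phosphosulfate). All 3 reactions depend on a donor that hepatocytes have to make, and much of this capacity sits in hepatocytes. The genes described here are the rows of the pig count table whose symbol begins with UGT1, UGT2 or UGT3, with a soluble GST class letter and a number, or with SULT1 to SULT6. These were 19 of 35670 genes, namely 1 UGT, 8 GST and 10 SULT genes, and 17 of them passed the filter on low counts among 16481 tested genes. SULT4A1, an enzyme mostly known from brain, had 0 reads in all 13 libraries, and SULT6B1 had 1 read in all. A library with a count of 0 can still hold up to 3 counts' worth of a transcript by the usual limit, and this limit covers counting error only.

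The livers came from a porcine model of ischemia-reperfusion injury. Baseline livers (n = 2, replicates 1a and 2) were sampled before any clamping and had no ischemia and no reperfusion. Ischemic controls (n = 3) had the hepatic artery, portal vein and hepatic veins clamped for 45 min and were sampled after 6 h of reperfusion without cells. Arterial infusion (n = 4) and portal infusion (n = 4) livers had the same clamping and reperfusion and received human bone marrow-derived mesenchymal stromal cells (BM-MSCs), at 3 M (mega) cells per kg body weight, by way of the hepatic artery or of the portal vein. The BM-MSCs were human, so their own transcripts are read here only as far as they map to the pig genome. Each label names a separate sample. The study's methods describe liver biopsies before vascular exclusion and after reperfusion, so baseline and later samples may share a pig, but the labels tie no baseline sample to a later one and no such pairing was used. The p-values measure the spread between these samples.

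Total counts per library lay between 18975413 and 35949178 with a median of 30260803. Values below are counts divided by DESeq2 size factors (normalized counts), which allow 1 gene to be compared between livers. They are not divided by transcript length, so levels are not compared between genes. The 12 hepatocyte markers summed to between 44778 and 185497 CPM (counts scaled to the same library total) in every liver, while the intestinal marker FABP2 had 0 reads throughout. The hepatocyte sum was lowest in portal infusion 1 (44778 CPM), ischemic control 2 (55662 CPM), portal infusion 4 (60413 CPM) and arterial infusion 1 (78943 CPM), and was 118712 CPM or more in the other 9 livers. Portal infusions 1 and 4 also had the most tested genes at 0, with 20.8% and 16.2%, against a range of 1.78% to 11.7% elsewhere. The smallest library totals were those of ischemic control 2 (18975413), portal infusion 1 (20563848) and portal infusion 4 (21444917), while arterial infusion 1 had 30260803. In bulk tissue, fewer cells of a type and less RNA per cell cannot be told apart. Reads of near-identical copies can be split or lost in counting, and the handling of reads with several positions is not given in the sources used here. This leaves UGT2B31, GSTA1 and SULT1A3 uncertain as single genes, because UGT2B, alpha-class GST and SULT1A genes occur as close copies, and RefSeq gives SULT1A1 as another name of the pig SULT1A3 gene. The libraries did not keep the strand, so reads of overlapping antisense genes cannot be told apart either.

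The only UGT row was UGT2B31 (ENSSSCG00000039276), a glucuronosyltransferase of the UGT2B subfamily, whose relatives conjugate steroids, bile acids and phenols. RefSeq places it on chromosome 8 at 66310697 to 66323755 of Sscrofa11.1. UGT2B31 had normalized counts of 11529 and 6088 in baseline replicates 1a and 2, 3489.5, 12189 and 4754 in ischemic controls 1 to 3, 6599, 7935, 4595 and 4093 in livers 1 to 4 of arterial infusion, and 2298, 12957, 10713 and 6511 in livers 1 to 4 of portal infusion. Every group spanned a wide range and the 4 groups overlapped, with portal infusion 2 highest and portal infusion 1 lowest of the 13 livers. The log2 fold change of ischemic controls against baseline was -0.41 with an SE of 0.68 and a 95% interval from -1.86 to 1.03. For all infused livers against controls it was 0.03 with an SE of 0.51, in an interval from -1.05 to 1.12. Without ischemic control 2 the first difference was -1.07 and the second 0.70.

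Among the GST genes, GSTA1 was lower in ischemic controls than at baseline and higher after arterial infusion than in controls, in each case without overlap. Of all tested genes, 16.3% were lower in controls than at baseline without overlap, and 1.61% higher after arterial infusion than in controls. GSTA1 (ENSSSCG00000052947, chromosome 7 at 46538743 to 46550781) encodes an alpha-class GST that hepatocytes hold in large amounts and that handles electrophiles and lipid peroxides. GSTA1 had normalized counts of 9585 and 9586 in baseline replicates 1a and 2, 3384, 5313 and 5180.1 in ischemic controls 1 to 3, 7425, 21969.9, 7917 and 5592 in livers 1 to 4 of arterial infusion, and 1878, 9713, 8487 and 6060.5 in livers 1 to 4 of portal infusion. All 3 ischemic controls were below both baseline livers, which lay close together, and all 4 arterial infusion livers were above all 3 controls. Portal infusion livers lay on both sides of the controls, portal infusion 1 being the lowest of all and the other 3 above every control.

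The mean of GSTA1 was 9585 ± 0.817 (SD, n = 2) at baseline, 4626 ± 1077 (SD, n = 3) in ischemic controls, 10726 ± 7562 (SD, n = 4) after arterial infusion and 6535 ± 3456 (SD, n = 4) after portal infusion. On the log2 scale, GSTA1 differed by -1.06 with an SE of 0.66 between controls and baseline, and by 1.20 with an SE of 0.58 between arterial infusion and controls. Their 95% intervals, from -2.47 to 0.35 and from -0.03 to 2.44, both include 0. Both differences share the 3 control livers, so they are not independent of each other. Neither passed the threshold over all genes, with adjusted p-values of 0.978 and 1.00 in edgeR's quasi-likelihood test. An exact two-sided permutation test of GSTA1 gave p = 0.1 for controls against baseline, the smallest that 3 against 2 livers allow, and p = 0.0571 for arterial infusion against controls, where 0.0286 is the smallest. Without arterial infusion 2 the difference from controls was 0.60. The unadjusted edgeR or DESeq2 p of GSTA1 in that comparison was under 0.05 in 9 of 17 alternatives and not in the fit over 13 libraries.

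**Figure D1:**
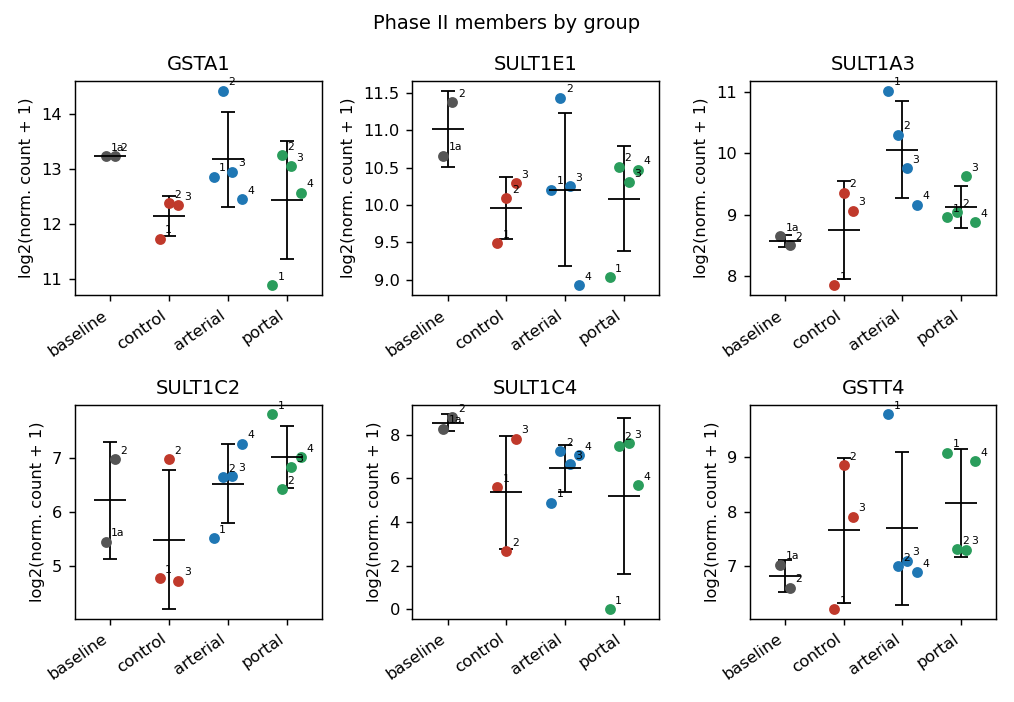
Normalized counts of 6 members as log2(normalized count + 1), with 1 point per liver labelled by its replicate, by group (2 baseline, 3 ischemic control, 4 arterial and 4 portal infusion livers), and bars for the mean and SD of these log2 values. GSTA1, SULT1E1 and SULT1C4 are lower in every control than in both baseline livers, while SULT1A3, SULT1C2 and GSTT4 overlap between these groups. Of all tested genes, 16.3% are lower in controls without overlap.

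The other alpha-class gene, GSTA4, lies close by on chromosome 7 at 46635903 to 46656491 and encodes an enzyme with high activity on 4-hydroxynonenal, a product of lipid peroxidation. Its normalized count was between 347 in ischemic control 1 and 1205 in portal infusion 4, with a median of 789 over all livers, and no group stood apart. GSTA4 differed by -0.25 (SE 0.52) between controls and baseline and by 0.26 (SE 0.40) between infused livers and controls.

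GSTO1 (ENSSSCG00000022351, chromosome 14 at 115206434 to 115216624) is an omega-class enzyme with thioltransferase and dehydroascorbate reductase activity. GSTO1 had normalized counts of 11981 and 14001 in baseline replicates 1a and 2, 14385, 15371 and 11064 in ischemic controls 1 to 3, 16915, 29891, 20374 and 14845 in livers 1 to 4 of arterial infusion, and 9972, 18578, 20324 and 9583 in livers 1 to 4 of portal infusion. It was among the steadiest members, its SD of 0.49 over the 11 livers at 6 h (log2 scale) being above that of 35.3% of the 150 genes of like level (within 0.5 of its mean log2 level). The arterial infusion mean of 20506 ± 6659 (SD, n = 4) was beside 13607 ± 2257 (SD, n = 3) in controls, with arterial infusion 4 inside the range of the controls. The exact two-sided permutation test gave p = 0.114 for that comparison.

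GSTK1 (ENSSSCG00000035615, chromosome 18 at 6992623 to 6999068) is the kappa-class enzyme of mitochondria and peroxisomes. GSTK1 had normalized counts of 2531 and 3433 in baseline replicates 1a and 2, 1439.8, 9004 and 3159 in ischemic controls 1 to 3, 5574, 3676, 3039.6 and 2061 in livers 1 to 4 of arterial infusion, and 2349.8, 2685, 2488 and 2184 in livers 1 to 4 of portal infusion. Ischemic control 2 was the highest of all livers and ischemic control 1 the lowest, a spread of 6.25 times within 1 group of 3, while the 4 portal infusion livers lay within 1.23 times of each other. GSTK1 differed by 0.57 (SE 0.60) between controls and baseline and by -0.60 (SE 0.43) between infused livers and controls. Both differences changed sign without ischemic control 2, to -0.34 and 0.31.

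GSTZ1 is the zeta-class enzyme that isomerizes maleylacetoacetate in tyrosine breakdown. Its normalized count was between 1322 in arterial infusion 4 and 4951 in arterial infusion 1, and the baseline mean of 2586 ± 76.98 (SD, n = 2) was close to 2597 ± 1446 (SD, n = 3) in controls and 2636 ± 1046 (SD, n = 8) in infused livers. The interval of the log2 difference between infused livers and controls ran from -0.81 to 0.83.

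GSTT4 (ENSSSCG00000010065), a theta-class gene, separated livers rather than groups. GSTT4 had normalized counts of 129 and 96.0 in baseline replicates 1a and 2, 72.8, 461 and 238 in ischemic controls 1 to 3, 882, 126, 135 and 117 in livers 1 to 4 of arterial infusion, and 542, 157, 157 and 487 in livers 1 to 4 of portal infusion. Its 4 highest values were those of arterial infusion 1, portal infusion 1, portal infusion 4 and ischemic control 2, and the next liver, ischemic control 3, had 238. These 4 livers are also the ones with the lowest sum of hepatocyte markers, from 44778 to 78943 CPM. Whether hepatocyte content or RNA yield has a part in this was not tested. GSTT4 differed by 1.15 (SE 0.96) between controls and baseline, or 0.50 without ischemic control 2, and by 0.33 (SE 0.70) between infused livers and controls, the latter becoming -0.33 without arterial infusion 1.

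The remaining GST genes had few reads. GSTM3 is a mu-class enzyme. GSTM3 had normalized counts of 57.1 and 26.4 in baseline replicates 1a and 2, 3.96, 33.3 and 80.9 in ischemic controls 1 to 3, 84.8, 20.4, 47.9 and 11.5 in livers 1 to 4 of arterial infusion, and 0, 103, 11.04 and 54.0 in livers 1 to 4 of portal infusion. Each 6 h group held both a low and a high liver. GSTO2, the second omega-class enzyme, was at 0 in arterial infusion 1 and portal infusion 1 and at most 28.3, in arterial infusion 4.

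SULT2A1 (ENSSSCG00000033207) conjugates dehydroepiandrosterone and bile acids. It had the most reads of the 19 members, and RefSeq places it on chromosome 6 at 53525496 to 53536723. SULT2A1 had normalized counts of 22886 and 18501 in baseline replicates 1a and 2, 15259.5, 35559.5 and 8280.4 in ischemic controls 1 to 3, 11248, 42866, 33315 and 13489 in livers 1 to 4 of arterial infusion, and 14277, 36464, 36110.2 and 21055 in livers 1 to 4 of portal infusion. The 4 groups overlapped, ischemic control 3 being the lowest of all 13 livers and ischemic control 2 lying above both baseline livers. The mean was 20694 ± 3101 (SD, n = 2) at baseline, 19699.8 ± 14171 (SD, n = 3) in controls and 26103 ± 12453 (SD, n = 8) in infused livers. The interval of the difference between controls and baseline ran from -1.60 to 1.39 on the log2 scale.

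SULT1E1 (ENSSSCG00000039341, chromosome 8 at 66811536 to 66838181) is the estrogen sulfotransferase. SULT1E1 had normalized counts of 1617 and 2668 in baseline replicates 1a and 2, 718, 1087 and 1255 in ischemic controls 1 to 3, 1178, 2776, 1220.1 and 484 in livers 1 to 4 of arterial infusion, and 524, 1459.8, 1267 and 1418 in livers 1 to 4 of portal infusion. All 3 controls were below both baseline livers, and 7 of the 8 infused livers were below baseline too, the exception being arterial infusion 2. Of all tested genes, 16.3% were lower in controls than at baseline without overlap. SULT1E1 differed by -1.07 between controls and baseline with an SE of 0.61 and an interval from -2.38 to 0.23, and the exact two-sided permutation test gave p = 0.1, its smallest possible value. The difference was -0.72 without baseline replicate 2. Infused livers against controls differed by 0.32 (SE 0.47), or 0.048 without arterial infusion 2, with both groups overlapping.

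SULT1C4 (ENSSSCG00000037616), a sulfotransferase of the phenol type, was the most variable member. SULT1C4 had normalized counts of 309 and 452 in baseline replicates 1a and 2, 47.5, 5.25 and 225 in ischemic controls 1 to 3, 28.6, 152, 99.0 and 133 in livers 1 to 4 of arterial infusion, and 0, 180.3, 196 and 50.3 in livers 1 to 4 of portal infusion. Both baseline livers were above all 11 livers at 6 h, and the raw count was 400 and 428 at baseline against 60, 3 and 311 in controls. Of all tested genes, 16.3% were lower in controls than at baseline without overlap. The share lower in all 11 livers at 6 h was not counted. Portal infusion 1 had 0 reads. The SD over the 11 livers at 6 h was 2.43 on the log2 scale, above that of 95.03% of the 1651 genes of like level. SULT1C4 differed by -2.01 between controls and baseline, but its SE was 1.41 and its interval ran from -5.02 to 1.00. The exact two-sided permutation p was 0.2. The difference was -3.77 without ischemic control 3. The livers lowest in hepatocyte markers, portal infusion 1, ischemic control 2, arterial infusion 1 and portal infusion 4, had at most 50.3 of SULT1C4, and of the other 9 livers only ischemic control 1, with 47.5, was that low. The part of hepatocyte content in these values was not tested.

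**Figure D2:**
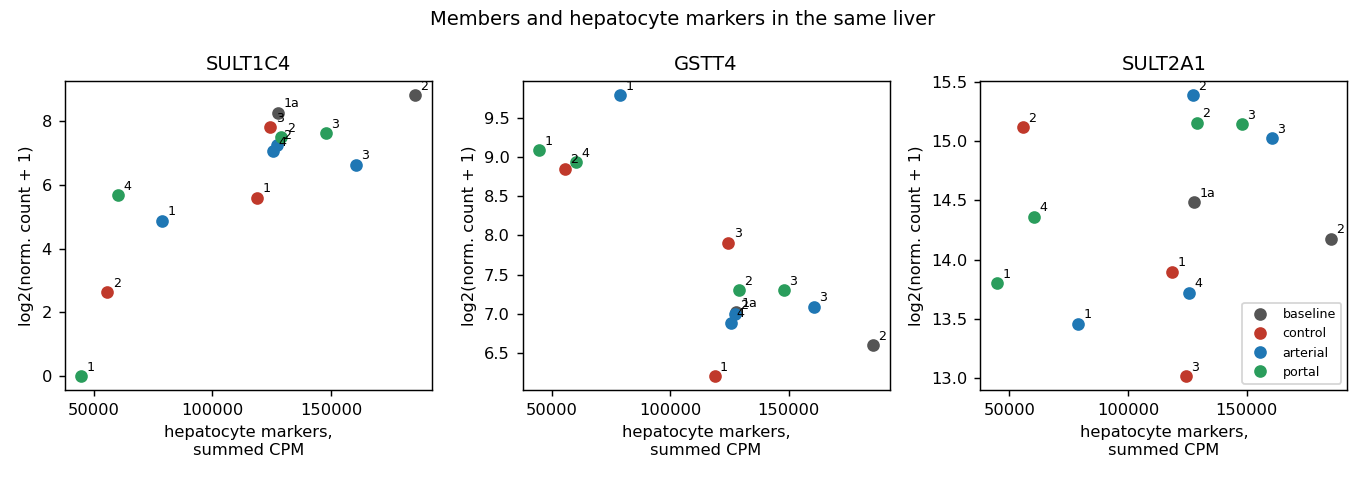
Level of SULT1C4, GSTT4 and SULT2A1, as log2(normalized count + 1) on the vertical axis, against the summed CPM of 12 hepatocyte markers in the same liver, for 13 livers coloured by group and labelled by replicate. The 4 livers with a marker sum of 78943 CPM or less hold the 4 highest GSTT4 values, and low SULT1C4 values, while SULT2A1 is spread at either end.

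SULT1A3 (ENSSSCG00000021557, chromosome 3 at 18351205 to 18354653) belongs to the SULT1A subfamily, which sulfates simple phenols and catecholamines. SULT1A3 had normalized counts of 400.3 and 363 in baseline replicates 1a and 2, 230.2, 655 and 534 in ischemic controls 1 to 3, 2067, 1261, 866 and 572 in livers 1 to 4 of arterial infusion, and 497, 528, 789.6 and 469.9 in livers 1 to 4 of portal infusion. All 8 infused livers were above both baseline livers, and the 3 highest livers of all were arterial infusions 1, 2 and 3. The share of all tested genes with all 8 infused livers above both baseline livers was not counted. Ischemic controls 2 and 3 lay within the range of the portal infusion group, and control 2 was above arterial infusion 4. The mean was 382 ± 26.5 (SD, n = 2) at baseline, 473 ± 219 (SD, n = 3) in controls, 1192 ± 648 (SD, n = 4) after arterial infusion and 571 ± 148 (SD, n = 4) after portal infusion.

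In the fit over 13 libraries, SULT1A3 was the 1 member with an unadjusted edgeR p under 0.05, and it had one in 2 of the 5 comparisons. It differed by 1.33 (SE 0.47, 95% interval from 0.33 to 2.34) between arterial infusion and controls and by 1.06 (SE 0.42, 95% interval from 0.16 to 1.97) between arterial and portal infusion. Both adjusted p-values over all genes were 1.00. The exact two-sided permutation tests gave p = 0.0857 and p = 0.0571. Without arterial infusion 1 these differences were 0.93 and 0.67. The unadjusted p was under 0.05 in 15 of 17 alternatives for arterial infusion against controls, the exceptions being those without arterial infusion 1 and without ischemic control 1. For arterial against portal infusion it was under 0.05 in 13 of 18, the exceptions being those without arterial infusion 1, portal infusion 1, portal infusion 4 or both of these portal infusions, and the fit with the replicate block. Arterial infusion 1 is among the 4 livers lowest in hepatocyte markers, and its part in the result beyond these values was not tested.

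SULT1C2 (ENSSSCG00000022153) is another sulfotransferase of the SULT1C group. SULT1C2 had normalized counts of 42.4 and 124 in baseline replicates 1a and 2, 26.1, 124 and 25.3 in ischemic controls 1 to 3, 44.6, 98.4, 99.8 and 152 in livers 1 to 4 of arterial infusion, and 222, 84.1, 112 and 128 in livers 1 to 4 of portal infusion. Ischemic controls 1 and 3 were the lowest of all livers and control 2 was above 5 of the 8 infused livers. Infused livers against controls differed by 1.00 (SE 0.65, interval from -0.38 to 2.38), or 2.11 without ischemic control 2 and 0.58 without control 3. For that comparison the exact two-sided permutation test gave p = 0.0424 without adjustment, while edgeR's quasi-likelihood test gave an unadjusted p of 0.142 and an adjusted p over all genes of 1.00. The share of all genes under 0.05 in the exact test was not computed.

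SULT2B1, a sulfotransferase for cholesterol and other hydroxysteroids, was at or near 0 in most livers. SULT2B1 had normalized counts of 3.86 and 5.27 in baseline replicates 1a and 2, 3.16, 0 and 1.45 in ischemic controls 1 to 3, 58.0, 0, 4.87 and 0 in livers 1 to 4 of arterial infusion, and 23.9, 0, 0 and 0 in livers 1 to 4 of portal infusion. Its highest values were 65 reads in arterial infusion 1 and 19 reads in portal infusion 1, and 6 of 13 libraries had 0 reads. SULT1C3 reached at most 19.0 and SULT1B1, which sulfates thyroid hormones, at most 13.7, with 0 reads in 5 and 3 libraries.

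Over the members, no comparison gave a called gene. In ischemic controls against baseline, 0 of 17 members passed an adjusted p of 0.05 (0% of all 16481 tested genes) and 0 of 17 an unadjusted p of 0.05 (4.37% of tested genes). Among them 6 were higher and 11 lower in controls, with a median log2 fold change of -0.10 beside 0.00 over all tested genes. Without ischemic control 1 they were 10 and 7 with a median of 0.051, and without baseline replicate 1a 9 and 8 with a median of 0.011, while the lowest median was -0.34 without ischemic control 2. The control and baseline livers did not overlap for 4 of 17 members, all 4 lower in controls (GSTA1, SULT1E1, SULT1C4 and the near-absent SULT2B1), where 16.3% of all tested genes were lower and 14.8% higher without overlap. With 17 members, this count is close to that background. DESeq2 fitted to these 2 groups alone called 1.02% of 16294 genes and 0 members. At an unadjusted p under 0.05 that fit gave 2 of 17 members, GSTA1 and SULT1C4, among 2041 genes in all. In edgeR fitted to the same 2 groups, 2 of 16 members, GSTA1 and SULT1E1, were among 1421 such genes of 15021 tested.

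**Figure D3:**
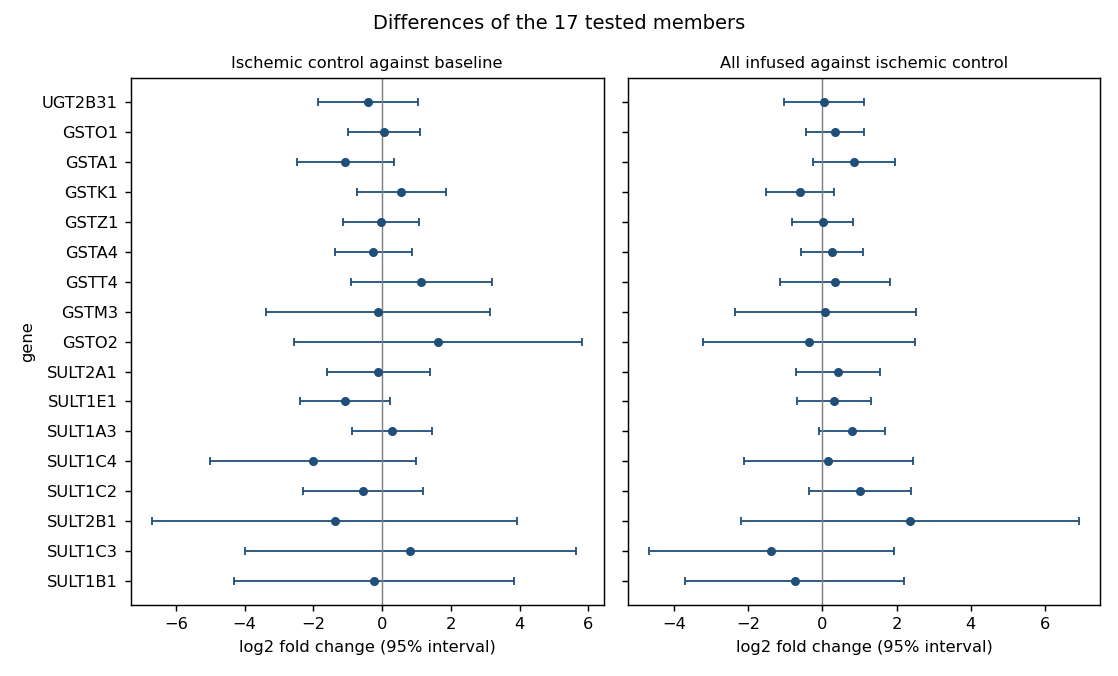
Log2 fold change with its 95% interval, from edgeR's fit over 13 livers, of the 17 tested members in ischemic controls against baseline and in all infused livers against ischemic controls. Every interval includes 0, and those of SULT2B1, SULT1C3, GSTO2 and SULT1B1, which have few reads, are the widest.

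In all infused livers against ischemic controls, 13 of 17 members were higher and 4 lower, with a median log2 fold change of 0.26 beside -0.02 over all tested genes. None was called (0% of tested genes), and 0 had an unadjusted p under 0.05, beside 2.14% of tested genes. For 0 members did the groups fail to overlap, where 0.225% of tested genes were higher and 0.34% lower without overlap. Without ischemic control 1, 7 members were higher and 10 lower, and the median was -0.11. Without arterial infusion 1, 8 were higher and 8 lower of the 16 then tested, with a median of 0.085, and the highest median was 0.40 without ischemic control 2.

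Arterial infusion against controls gave 12 higher and 5 lower members with a median of 0.31, and portal infusion against controls 12 and 5 with a median of 0.18. Both comparisons share the 3 control livers. Without ischemic control 1 the counts were 8 higher and 9 lower after arterial infusion, with a median of -0.13, and 6 and 11 after portal infusion, with a median of -0.086. Without portal infusion 2 they were 7 and 10 after portal infusion, with a median of -0.055. The highest medians were 0.61 after arterial infusion, without ischemic control 2, and 0.31 after portal infusion, without portal infusion 1. After arterial infusion 1 of 17 members, SULT1A3, had an unadjusted p under 0.05 (1.57% of tested genes) and 1, GSTA1, was higher without overlap (1.61% of tested genes, with 1.57% lower). After portal infusion 0 members did (2.79% of tested genes), and 0 were free of overlap in either direction (1.39% of tested genes higher and 2.33% lower). Arterial against portal infusion gave 11 higher and 6 lower members with a median of 0.28, again with 1 unadjusted p under 0.05, that of SULT1A3 (2.4% of tested genes), and 0 members without overlap (0.91% of tested genes higher and 0.498% lower). That median was 0.020 without portal infusion 1 and 0.44 without arterial infusion 4.

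The members also varied by liver. In ischemic control 1, 15 of 17 members were below their mean over all livers, with a median deviation of -0.91 on the log2 scale, while the median over all tested genes there was 0.03. In arterial infusion 2, 14 of 17 were above their mean, with a median of 0.91 beside 0.04 over all tested genes. Portal infusion 1 and arterial infusion 4 were also low, with medians of -0.61 and -0.54, and ischemic control 2 was high, with 0.44. In portal infusion 1 the median over all tested genes was itself -0.26, and 5 tested members had 0 reads. Among the 11 members with at least 10 counts in every library, the medians of ischemic control 1 and arterial infusion 2 were -0.99 and 0.43, and that of ischemic control 2 was highest with 0.59. The sum of all members' counts was 1564 CPM in ischemic control 1, 1379 CPM in portal infusion 1 and 3431 CPM in arterial infusion 2. These sums are led by SULT2A1, GSTO1, GSTA1 and UGT2B31. The median SD of the members over the 11 livers at 6 h was 0.90 on the log2 scale, beside 0.91 over all tested genes. Low genes vary more, and 13 of the 17 members were above the median SD of tested genes of like level, with 0.90 against 0.64 for GSTA1, 1.14 against 0.70 for GSTT4 and 0.82 against 0.60 for SULT1A3.

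**Figure D4:**
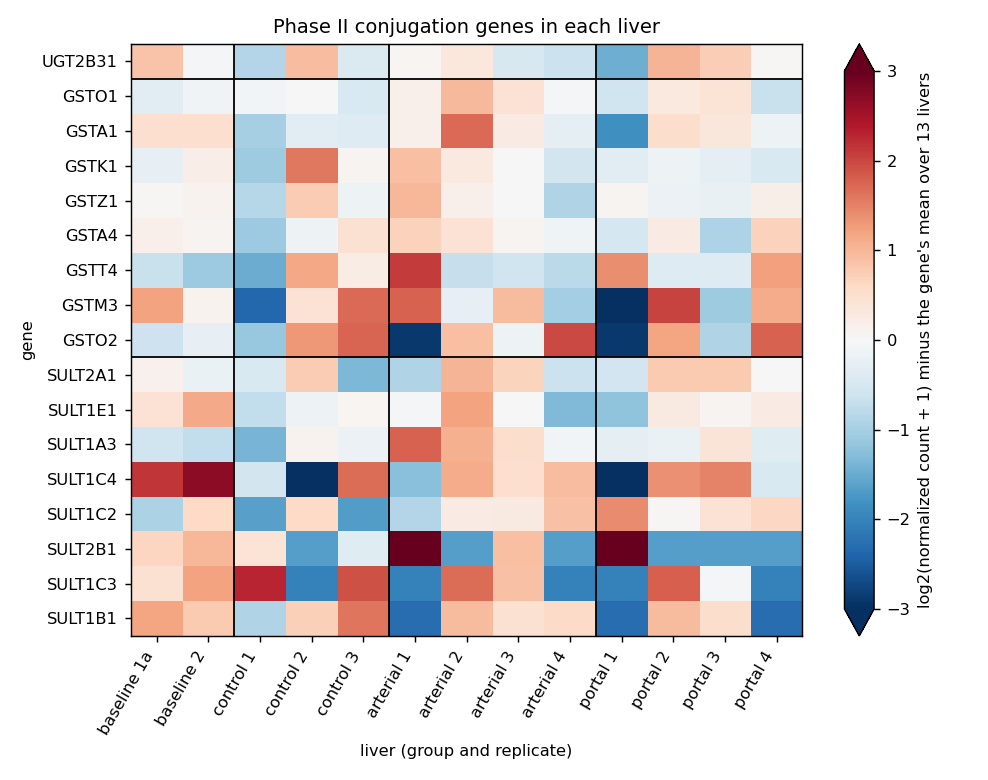
Deviation of each of the 17 tested members from its own mean over 13 livers, as a difference of log2(normalized count + 1), in colour from below (blue) to above (red), with livers in columns by group and genes in rows by family. Ischemic control 1 is below the mean for 15 members and arterial infusion 2 above it for 14, and values past 3 in either direction have the end colour.

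The genes around the conjugation step were followed through 9 lists, and 0 genes of any list were called in any comparison. In the glutathione supply and turnover list (11 of 13 genes with a row), 2 genes had an unadjusted p under 0.05 and were higher in infused livers than in controls (2.14% of tested genes had one), and 0 were lower. These were GCLC and GCLM, the catalytic and the modifier subunit of glutamate-cysteine ligase, the rate-limiting enzyme of glutathione synthesis. GCLM had normalized counts of 2299 and 1491 in baseline replicates 1a and 2, 1232, 1291 and 1244 in ischemic controls 1 to 3, 7991, 3295, 2267 and 1869 in livers 1 to 4 of arterial infusion, and 4564, 3297, 2716 and 5208 in livers 1 to 4 of portal infusion. GCLC had normalized counts of 1419 and 1103 in baseline replicates 1a and 2, 483, 506 and 639.6 in ischemic controls 1 to 3, 1183, 3343, 1449 and 862 in livers 1 to 4 of arterial infusion, and 765, 2088, 1584 and 804 in livers 1 to 4 of portal infusion. All 8 infused livers were above all 3 controls for both genes, where 0.225% of tested genes show this. The controls were also below both baseline livers, as they were for 16.3% of tested genes. Both contrasts share the 3 control livers, so they are not independent of each other. GCLM differed by 1.60 (SE 0.44) and GCLC by 1.45 (SE 0.48) between infused livers and controls, with adjusted p-values of 1.00 in edgeR over all genes. Against controls, the log2 differences of GCLM and GCLC were 1.60 and 1.64 after arterial infusion and 1.60 and 1.27 after portal infusion. Most of the list went the other way from GCLC and GCLM, since 3 of its 11 genes were higher and 8 lower in infused livers, with a median of -0.24. In controls against baseline, 8 of the 11 were higher and 3 lower, with a median of 0.30. CHAC1, which degrades glutathione, differed by -2.33 (SE 0.98) between portal infusion and controls, and OPLAH, the 5-oxoprolinase, by -1.51 (SE 0.55) between arterial and portal infusion, both at an unadjusted p under 0.05. Of all tested genes, 2.79% and 2.4% had such a p in these 2 comparisons.

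**Figure D5:**
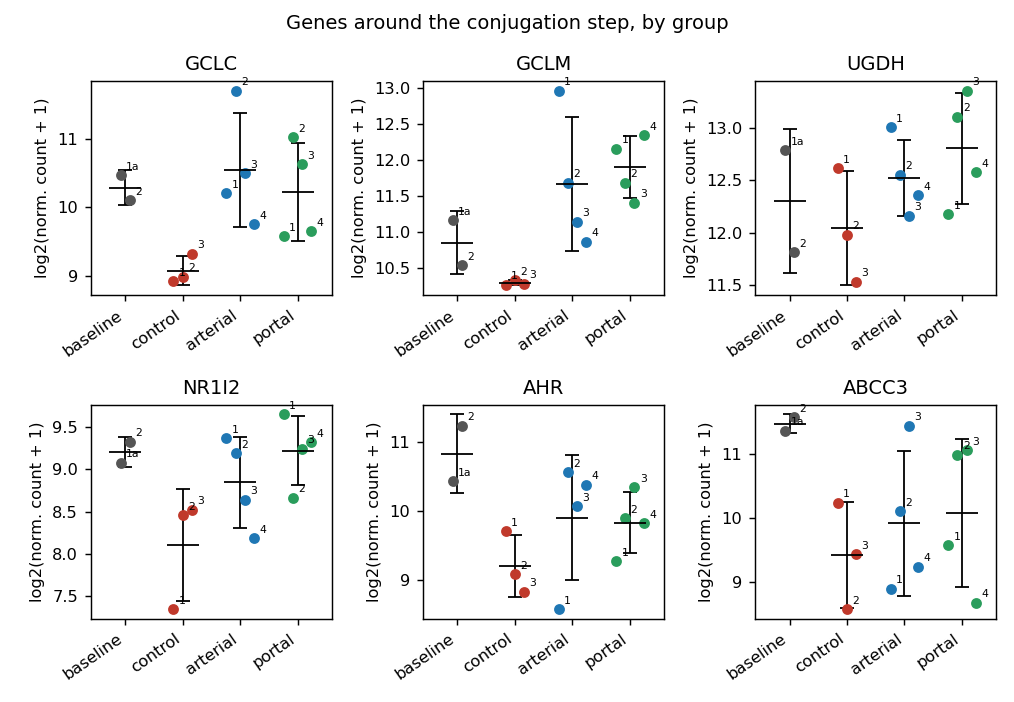
The plot holds 6 genes around the conjugation step as log2(normalized count + 1), with 1 point per liver labelled by its replicate, by group, and bars for the mean and SD of these log2 values. GCLC and GCLM are lower in the 3 ischemic controls than in any of the other 10 livers, while UGDH, AHR and ABCC3 overlap between infused livers and controls. The share of all tested genes lowest in the 3 controls was not counted.

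For the sulfate donor, the PAPS supply list had 6 of 8 genes lower in controls than at baseline and 4 of 8 lower in infused livers than in controls, with 0 unadjusted p under 0.05 in both. PAPSS2, a PAPS synthase, was at 1048 and 1385 at baseline, 1373, 461 and 473 in controls 1 to 3, 278, 1118, 959.7 and 1036 in arterial and 73.0, 1153, 1242 and 248 in portal infusions 1 to 4. Its lowest values were those of portal infusion 1, portal infusion 4, arterial infusion 1 and ischemic control 2, the livers with the lowest hepatocyte marker sums. The share of all tested genes with their lowest or highest values in these livers was not counted. The list for UDP-glucuronic acid supply summed to 358 CPM in ischemic control 2, 483 CPM in portal infusion 1, 759 CPM in arterial infusion 1 and 859 CPM in portal infusion 4, and to between 1234 and 2140 CPM in the other 9 livers. UGDH, which makes UDP-glucuronic acid, did not follow that order, its lowest value being 2964 in ischemic control 3 and its highest 10433 in portal infusion 3.

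Of 18 regulators of phase II genes, 1 was higher and 3 lower in controls than at baseline at an unadjusted p under 0.05 (4.37% of tested genes). AHR, the aryl hydrocarbon receptor, was at 1381 and 2405 at baseline and 833, 541 and 455 in controls, a log2 difference of -1.62 (SE 0.55). NR1I2, the pregnane X receptor, was at 541 and 642 at baseline, 161, 350.2 and 367 in controls, 660.3, 585, 398 and 290.3 after arterial and 803, 404, 606 and 639 after portal infusion. It differed by -1.03 (SE 0.46) between controls and baseline and by 0.87 (SE 0.37) between infused livers and controls, the latter 0.60 without ischemic control 1. These 2 differences share the 3 control livers, so they are not independent of each other. PPARA, the fatty acid receptor, differed by -1.87 (SE 0.65) between controls and baseline. The study names PPARA among the genes it found lower after ischemia-reperfusion with DESeq2, at an adjusted p under 0.05. Here no alternative called PPARA, its smallest adjusted p over 15 edgeR or DESeq2 alternatives being 0.0586. The difference kept its sign in all 15. RXRA, the shared partner of several of these receptors, was at 1974 and 1169.9 at baseline and 3770.4, 5658 and 4682 in controls, a difference of 1.56 (SE 0.72). Its highest values were those of portal infusion 1, portal infusion 4, arterial infusion 1 and ischemic control 2. After portal infusion 3 regulators were higher than in controls at an unadjusted p under 0.05 (2.79% of tested genes), and 0 were lower. These were CEBPA with 1.03 (SE 0.39), NR1I2 with 1.03 (SE 0.40) and FOXA2 with 0.99 (SE 0.45). FOXA2 was also the 1 regulator under this threshold in arterial against portal infusion, with -1.04 (SE 0.41).

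Among 7 conjugate exporters with a row, ABCC3, which moves glucuronides into blood, was at 2625 and 3034 at baseline and 1205, 382 and 692 in controls, a log2 difference of -1.87 (SE 0.81). Of 12 phase I partners, FMO5, a flavin monooxygenase, was at 2711 and 5353 at baseline and 618, 1161 and 1500.3 in controls, a difference of -1.89 (SE 0.55), and 10 of the 12 were lower in controls. Between controls and baseline, ABCC3 and FMO5 had an unadjusted p under 0.05, as did 4.37% of tested genes. NQO1, a quinone reductase, was higher after arterial infusion than in controls by 1.69 (SE 0.62), its normalized counts being 1153, 365, 136 and 1141 after arterial infusion and 144, 165 and 329.5 in controls. Arterial infusion 3 was below all 3 controls, so the groups overlapped. ALDH1A1, an aldehyde dehydrogenase, was higher by 1.11 (SE 0.51) in the same comparison, these 2 of 12 being the partners with an unadjusted p under 0.05 (1.57% of tested genes). After portal infusion 2 of 12 were lower than in controls at this threshold (2.79% of tested genes), FMO5 with a difference of -1.03 (SE 0.46) and ADH4, an alcohol dehydrogenase, with -1.55 (SE 0.67). In arterial against portal infusion NQO1 and FMO5 were higher at this threshold (2.4% of tested genes), by 1.65 (SE 0.56) and 1.24 (SE 0.43). For the other lists, 0 genes of the microsomal glutathione transferases, of the other conjugating enzymes and of the deconjugating enzymes had an unadjusted p under 0.05 in any comparison, and their medians in infused livers against controls were 0.19, -0.25 and -0.34.

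Markers of other cells also differed between controls and baseline, with 0 of them called. All 6 tested neutrophil markers and all 8 lymphocyte markers were higher in controls, with median log2 fold changes of 2.54 and 0.81. All 4 tested erythroid and 5 of 7 cholangiocyte markers were also higher, with medians of 1.96 and 0.85. So were 4 of 7 Kupffer cell and macrophage markers, with a median of 0.20. Lower were 4 of 6 endothelial and 6 of 9 stellate cell and fibroblast markers, with medians of -0.31 and -0.25. The neutrophil sum was 37.6 and 36.0 CPM at baseline, 57.3, 401 and 187 CPM in controls 1 to 3, and between 24.1 and 361 CPM in infused livers. Of 12 hepatocyte markers, 8 were lower in controls, with a median of -0.55. In infused livers against controls, 7 of 12 hepatocyte markers were higher with a median of 0.06, while 6 of 7 tested Kupffer cell and macrophage markers and 5 of 6 neutrophil markers were lower, with medians of -0.64 and -1.07. Also lower were 6 of 6 endothelial, 6 of 9 stellate cell and fibroblast and 3 of 4 erythroid markers, with medians of -0.34, -0.64 and -1.01. For cholangiocyte and lymphocyte markers 4 of 7 and 4 of 8 were lower, with medians of -0.32 and -0.07. The part of these cells in the values of the phase II genes was not tested.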

How the data were processed

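Bulk RNA sequencing of 13 pig liver samples in 4 groups was used. The values deposited by the authors are raw counts per gene, made by HISAT2 alignment to Sscrofa11.1 and by FeatureCounts with Ensembl gene models. Tool versions and the handling of reads with several positions are not given in the sources used here. Samples were grouped by their labels, which name every column. No pair of replicates was a copy, the smallest chi-square per gene being 72.1.

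All 13 libraries entered 1 quasi-likelihood fit (edgeR 4.0.16, R 4.3.3) after TMM scaling and filterByExpr. P-values were adjusted after Benjamini and Hochberg over 16481 genes, with a threshold of 0.05, and the script was first tested on simulated data. The study's tool, DESeq2 (1.42.0), gave the size factors and an alternative test. SEs were derived from the log2 fold change and its F value, and intervals cover 95%. Single genes were also compared by exact two-sided permutation tests on log2(normalized count + 1).

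The members and lists were chosen with earlier results of these data known. Members named with values in every library were the 3 with the highest mean CPM in each family, the 4 with the smallest unadjusted p in controls against baseline and in infused livers against controls, any called member, and the 3 with the largest SD at 6 h. Pathway genes were named where their unadjusted p was under 0.05 in the fit over 13 libraries or as the donor-making enzyme of a list, chosen after their values were seen. RefSeq (Sscrofa11.1) gave coordinates for 13 members by symbol. Gene lengths and promoter sequences were not used here, so a planned motif search was not run. Alternatives covered normalization, filters, tool, the groups fitted, the replicate number as a block, portal infusions 1 and 4 left out, and each library left out in turn.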

Additional observations from a re-analysis of the deposited data

Results flagged for a closer look

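In 32 sets of 4 livers, made of 12 named members and 4 summed levels (each family and all members) in each of 2 infusion groups, 3 livers lay apart from the others of their set by Dixon's criterion. Its usual rate of about 1 set in 20 assumes separate sets that were not chosen for their spread. Here the sums repeat the members, and SULT1C4, SULT2B1 and GSTM3 were named for their large SD at 6 h. The 3 cases therefore cannot be set against that rate. SULT1E1 was low in portal infusion 1, with a normalized count of 524 beside 1267 to 1460 in the other 3 portal infusion livers. GSTT4 was high in arterial infusion 1, with 882 beside 117 to 135 in the other 3 arterial infusion livers. SULT2B1 was at 23.9 in portal infusion 1, from 19 reads, beside 0 in the other 3 portal infusion livers, where any value above 0 would meet the criterion.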

How the results depend on the processing

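No phase II gene was called in any of the 88 comparisons recomputed under 24 alternative settings. The count of all genes called moved from 0 without the filter on low counts, to 30 in controls against baseline, 19 in infused livers against controls, 11 after arterial infusion, 14 after portal infusion and 5 for arterial against portal infusion. DESeq2 over 13 libraries called 5 genes in controls against baseline, 1 in infused livers against controls, 4 after portal infusion and 1 for arterial against portal infusion, and DESeq2 over the groups compared called 166 in controls against baseline and 3 after portal infusion. Of the recomputed log2 fold changes of named genes, 638 kept their sign and 38 did not.

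The replicate numbers were not taken as pairs, since same-numbered livers correlated at -0.42 to 0.43 in their deviations and 4 of 10 pairs passed 0.1. Livers with different numbers correlated at -0.53 to 0.44, a like range. With so few livers a group, these values cannot show whether same-numbered livers are linked. With the replicate block, 0 genes were called in any comparison at 6 h, and infused livers against controls gave -0.24 for SULT1C4 and -0.29 for GSTT4, both reversed. With portal infusions 1 and 4 left out, GSTT4 gave -0.17. With total counts only, SULT1C4 gave -0.067 and GSTM3 -0.033 in the same comparison, and GSTO1 -0.017 in controls against baseline. All 11 livers at 6 h against baseline gave 0.21 for SULT2A1, 0.18 for SULT1C2 and 0.34 for SULT2B1. The cause was not tested.

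Leaving out 1 library at a time, controls against baseline ranged from -1.07 to 0.14 for UGT2B31, from -0.036 to 0.22 for GSTO1, from -0.34 to 0.98 for GSTK1, from -0.78 to 0.31 for SULT2A1, from -1.66 to 0.36 for SULT1C2 and from -1.19 to 0.58 for GSTM3. Infused livers against controls ranged from -0.26 to 0.70 for UGT2B31, from -1.01 to 0.31 for GSTK1, from -0.41 to 1.93 for SULT1C4, from -0.33 to 1.00 for GSTT4 and from -0.45 to 1.17 for GSTM3, and portal infusion against controls from -0.044 to 0.52 for SULT1A3. GSTA1, SULT1E1, GCLC and GCLM kept their sign in every alternative of the comparisons run for them. Precision is limited by 2 to 4 livers a group and a common biological coefficient of variation of 0.73.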
